A study of Mus musculus with 6 samples.

Results

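The T cell receptor beta locus of the mouse was examined in regulatory T cells sorted from bone marrow. Its members are the genes whose symbol begins with Trbv, Trbd, Trbj or Trbc followed by a digit, with capitals and small letters treated alike. There were 53 such genes among 47643 in the tables, made up of 35 variable (V), 2 diversity (D), 14 joining (J) and 2 constant (C) genes. RNA came from CD4+ FOXP3-GFP+ cells, which carry a fluorescent reporter of FOXP3, the transcription factor that defines regulatory T cells. The tested libraries came from the marrow of 3 mice injected with Vk*MYC cells, which are mouse myeloma cells (a cancer of plasma cells) that can be transplanted, and bear replicate numbers 3, 4 and 5. The others came from the marrow of 3 control mice, with replicate numbers 1, 3 and 5. The labels used here leave out strain, age, the time after injection and what the controls received. Total expected counts per library, the reads that RSEM assigned to genes, ran from 10240620 to 13314631, and the beta locus took between 0.107% and 0.140% of them.

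Each T cell builds its own beta chain gene by joining 1 V, 1 D and 1 J segment on the chromosome, and the joined exon is then spliced to a constant gene. The V segment encodes most of the part that contacts antigen and its presenting molecule, and the V-D-J junction forms the most variable loop of the chain. The beta chain pairs with an alpha chain and is held at the surface by the CD3 proteins. In a population of cells, the shares of V segments among transcripts give a coarse view of the receptor repertoire, since each segment is used by many clones with different junctions. In bulk RNA, fewer cells that use a segment and less RNA per cell cannot be told apart.

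The D and J genes had no counts in any library, and their sequences show why these tables cannot hold them. Both D segments and a J segment of each cluster follow, read 5′ to 3′ from the GENCODE M21 transcripts on GRCm38, with capitals on the J codons for the phenylalanine-glycine motif that ends the junction loop. They lie at chr6:41533201-41533212, chr6:41542163-41542176, chr6:41533864-41533911 and chr6:41543810-41543856, in the order shown, all on the plus strand.
Trbd1: gggacagggggc
Trbd2: gggactgggggggc
Trbj1-1: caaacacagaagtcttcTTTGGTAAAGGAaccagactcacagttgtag
Trbj2-7: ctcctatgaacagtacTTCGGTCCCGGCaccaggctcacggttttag
The D segments have 12 and 14 bases and the J genes between 45.5 and 53 bases (lengths averaged over transcripts), while the mean fragment length implied by the tables was between 195.9 and 214.2 bases. The effective length, the number of positions a fragment can start from, was therefore 0 for all 16 of these genes. Their listed value of 0 is a property of the counting and says nothing about their use, and no share of the Trbj1 cluster could be computed.

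The locus spans chr6:40891229-41558452. Of the 35 V genes, 24 had counts in at least 1 library and 22 had counts in all 6. GENCODE annotates 22 V genes as functional and 13 as pseudogenes, and 11 of the pseudogenes were at 0 in every library. Summed V counts per library were between 2178.94 and 3771.06, so a count of 0 allows a share of up to 0.138% of V counts in the shallowest library. Trbv22, a pseudogene, had 3 counts in myeloma replicate 4 only, and Trbv21 had 2 counts in control replicate 5 only. Trbv24, which GENCODE lists as a pseudogene and RefSeq as a V segment, had 21, 4 and 17 counts in myeloma libraries and 31, 20 and 10 in control libraries.

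The levels of both constant genes, as counts scaled to library size, overlapped between the groups. Trbc1 and Trbc2 encode nearly identical constant domains that anchor the chain in the membrane. Trbc1 had 414, 373 and 311 CPM (counts scaled to library size, with TMM factors) in myeloma replicates 3, 4 and 5, against 370, 371 and 352 CPM in control replicates 1, 3 and 5. Trbc2 had 736, 709 and 621 CPM in the myeloma libraries, against 699, 704 and 677 CPM in the control libraries. In CPM the groups overlapped for both genes, with the highest and the lowest value in myeloma replicates 3 and 5. By edgeR's quasi-likelihood test, the log2 fold change, myeloma minus control, was 0.0059 for Trbc1 (SE 0.11, adjusted p = 0.979) and -0.0094 for Trbc2 (SE 0.09, adjusted p = 0.963). These signs turn under several settings. In TPM, RSEM's own scaling by length and library, summed Trbc was lower in myeloma, at 2714 ± 394 against 3209 ± 116 TPM (SD, n = 3 each). On that scale the groups did not overlap for summed Trbc or for Trbc2, while they overlapped for Trbc1.

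The 2 constant genes share the first part of their coding sequence. Their coding parts have 521 bases each and differ at 23, with an identity of 95.6%, and the first 259 bases are the same. A stretch that holds 11 of the differences is shown with the differing bases in capitals. It crosses a splice junction on the plus strand, within chr6:41539294-41539662 for Trbc1 and chr6:41547837-41548178 for Trbc2, and encodes the end of the membrane anchor.
Trbc1: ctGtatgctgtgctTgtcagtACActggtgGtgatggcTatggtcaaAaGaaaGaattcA
Trbc2: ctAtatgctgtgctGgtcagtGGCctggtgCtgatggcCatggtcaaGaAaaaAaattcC
RSEM divided the reads from the shared part by a model, so the split is uncertain. Trbc1 took 36.0%, 34.5% and 33.4% of Trbc counts in myeloma replicates 3, 4 and 5, against 34.6%, 34.5% and 34.2% in control replicates 1, 3 and 5. The difference of 0.16 percentage points (SE 0.77) was smaller than the spread among the myeloma libraries.

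Summed variable segments were lower in every myeloma library than in any control library. Summed Trbv was 260, 245 and 195 CPM in myeloma replicates 3, 4 and 5, against 277, 286 and 274 CPM in control replicates 1, 3 and 5. The groups did not overlap, and myeloma replicate 5 was the lowest. The means were 233 ± 34.3 CPM in myeloma and 279 ± 6.43 CPM in control libraries (SD, n = 3 each), a log2 ratio of -0.26, which was -0.14 without myeloma replicate 5. The number of V counts per C count was 0.226, 0.227 and 0.209 in myeloma libraries, against 0.259, 0.266 and 0.266 in control libraries. The means of this ratio were 0.220 ± 0.0102 in myeloma and 0.264 ± 0.00408 in control libraries, a difference of -0.043 (SE 0.0063) that was between -0.046 and -0.037 whichever library was left out. In TPM the ratio was 0.590, 0.615 and 0.574 in myeloma libraries, against 0.667, 0.721 and 0.700 in control libraries, again without overlap. With 3 libraries against 3, a two-sided exact permutation test cannot give p under 0.1, so sums over members are given without one. The mean fragment length was 197.4, 204.5 and 214.2 bases in the myeloma libraries and 195.9, 208.4 and 201.9 bases in the control libraries. The lowest ratio and the longest fragments were both in myeloma replicate 5. Control replicate 3, with the next longest fragments (208.4 bases), had a ratio of 0.266. Myeloma replicate 3, at 197.4 bases, had 0.226, against 0.259 in control replicate 1 at 195.9 bases. The part of fragment length in the ratio was not tested.

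**Figure D1:**
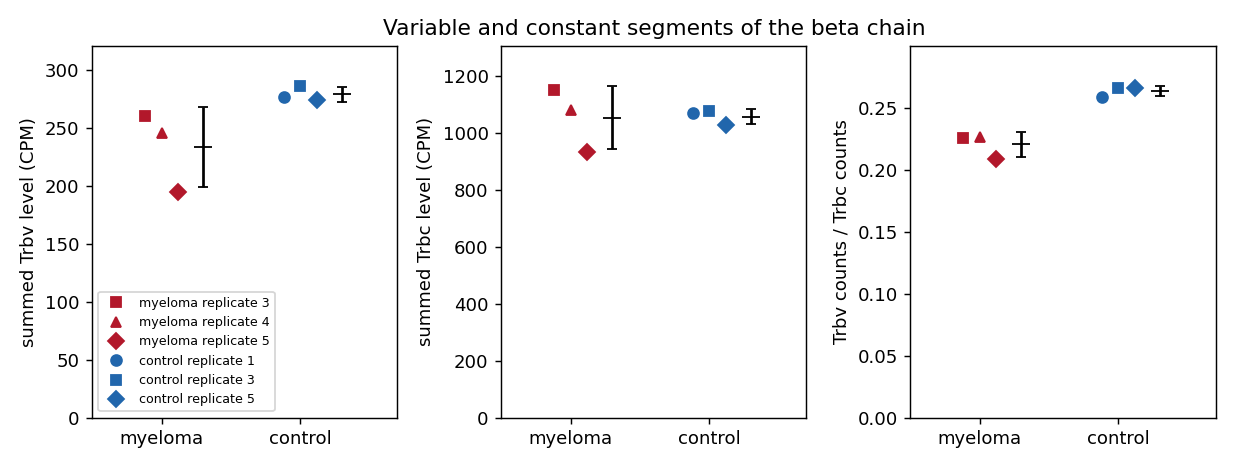
Summed Trbv level, summed Trbc level (both in CPM) and Trbv counts per Trbc count, for each library (points; marker shape gives the replicate number), with the mean and SD of each group (bars, n = 3). The Trbc levels of the groups overlap, while the ratio lies between 0.209 and 0.227 in myeloma and between 0.259 and 0.266 in control libraries.

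For the alpha chain the ratio overlapped between the groups. That ratio, of summed Trav counts, the V segments of the alpha chain, to counts of Trac, its constant gene, was 0.267, 0.247 and 0.254 in myeloma and 0.251, 0.288 and 0.311 in control libraries, which overlap. Whether the alpha and beta ratios differ in their response was not tested. Trac itself was at 755 ± 44.5 CPM in myeloma and 588 ± 105 CPM in control libraries (SD, n = 3 each). It missed the threshold (log2 fold change 0.36, SE 0.13, adjusted p = 0.103). The groups did not overlap, but only narrowly, with 709 CPM in myeloma replicate 5 and 708 CPM in control replicate 1. Summed Trav was higher in every myeloma library, at 213, 187 and 180 CPM, against 178, 156 and 159 CPM in control libraries.

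No single beta gene passed the test. Of the 24 members with enough counts to be tested, 22 V genes and both C genes, none was higher or lower by edgeR's quasi-likelihood test at an adjusted p of 0.05, while 11.0% of the 13235 genes tested were called, 6.33% as higher and 4.69% as lower. At an unadjusted p under 0.05 there were 0 members higher and 3 lower (Trbv15, Trbv12-2 and Trbv3), and 12.7% of all genes were lower by that measure. DESeq2 and limma-voom each called 2 members, Trbv15 and Trbv12-2, both lower. Of the 22 V genes tested, 18 had a negative log2 fold change, against 48.0% of all genes tested, and their median was -0.26 (all genes, 0.02). The CPM of the groups did not overlap for 6 V genes, all lower in myeloma (Trbv3, Trbv12-1, Trbv12-2, Trbv15, Trbv17 and Trbv31). Among all genes tested, 16.0% were lower in this way. Trbv31, with a log2 fold change that was -0.50 (SE 0.23, adjusted p = 0.196), is the one V gene that lies downstream of the constant genes, on the minus strand.

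**Figure D2:**
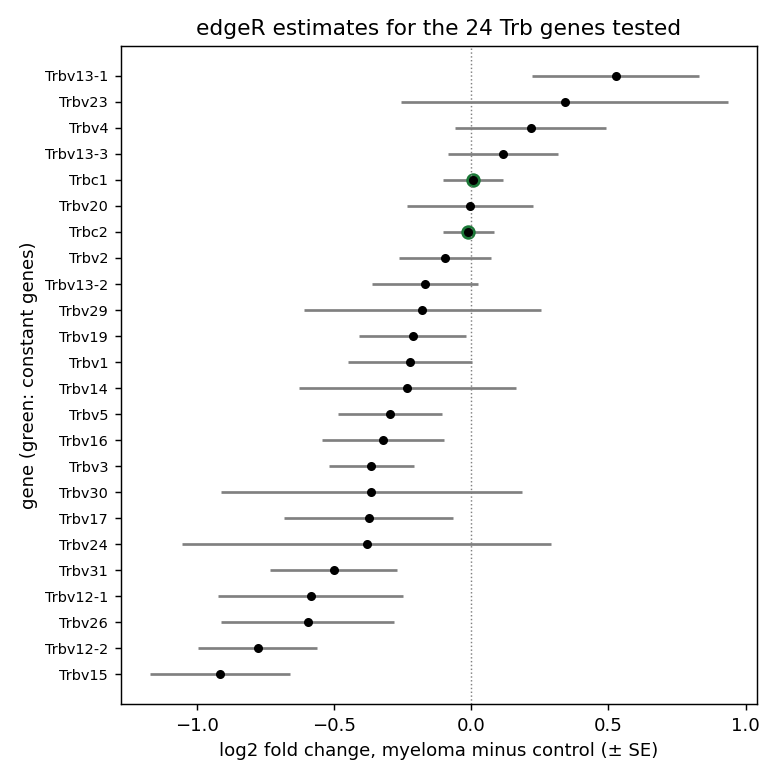
Log2 fold change, myeloma minus control, with its standard error (horizontal bars) for each of the 24 beta locus genes tested by edgeR, sorted by size. The constant genes (ringed in green) lie near 0 while 18 of 22 V genes lie below 0, from -0.92 for Trbv15 to 0.53 for Trbv13-1.

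The germline 3′ ends are shown for the 3 segments whose shares did not overlap between groups (Trbv15, Trbv12-2 and Trbv13-1) and for their Trbv12 and Trbv13 relatives, because this is where a V segment enters the junction. Capitals run from the codon of the conserved cysteine, the first residue of the junction loop, to the end of the segment. All lie on the plus strand of chromosome 6. Trbv15 ends at chr6:41141599-41141658, Trbv12-1 at chr6:41114008-41114067, Trbv12-2 at chr6:41119305-41119364, Trbv13-1 at chr6:41116409-41116468, Trbv13-2 at chr6:41121773-41121832 and Trbv13-3 at chr6:41130526-41130585.
Trbv15: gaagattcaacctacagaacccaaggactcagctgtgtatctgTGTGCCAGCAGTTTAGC
Trbv12-1: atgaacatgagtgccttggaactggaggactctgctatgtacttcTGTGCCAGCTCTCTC
Trbv12-2: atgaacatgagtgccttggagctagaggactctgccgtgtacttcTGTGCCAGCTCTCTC
Trbv13-1: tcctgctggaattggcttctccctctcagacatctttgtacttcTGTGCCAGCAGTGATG
Trbv13-2: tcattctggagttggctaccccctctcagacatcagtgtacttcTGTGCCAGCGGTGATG
Trbv13-3: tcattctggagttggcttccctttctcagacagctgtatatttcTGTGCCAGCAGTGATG
The genes of the Trbv12 and Trbv13 subfamilies are interleaved along this stretch of the chromosome. Over the last 280 bases, Trbv12-1 and Trbv12-2 were 88.9% identical, and the 3 Trbv13 genes were between 85.4% and 91.4% identical to each other. Counts of these 5 genes were whole numbers in every library (within 0.005), so RSEM reported no reads divided among them. The V genes with fractional counts were Trbv4 and Trbv5.

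Trbv15 had the most negative log2 fold change among V genes. It had 10.8, 10.2 and 5.63 CPM in myeloma replicates 3, 4 and 5, against 18.4, 17.2 and 14.6 CPM in control replicates 1, 3 and 5. All myeloma values lay below all control values. Its log2 fold change was -0.92 (SE 0.25, adjusted p = 0.0513), just outside the threshold. It passed under 8 of 10 other settings on the same libraries, with adjusted p between 0.0017 and 0.117 over the 10. It did not pass with the replicate block (0.117). With summed Trbv counts as library size, which compares it with the other V segments, it did not pass either (log2 fold change -0.68, adjusted p = 0.081). It passed in 1 of 6 fits that left out a library (0.049 to 0.153). Its share of V counts was 4.14%, 4.17% and 2.89% in myeloma libraries, against 6.65%, 6.004% and 5.33% in control libraries. The share differed by -2.26 percentage points. Trbv15, Trbv12-2 and Trbv13-1 were singled out because their shares did not overlap. With 3 against 3 libraries, that alone sets the exact permutation p at 0.1, the smallest possible, so this p adds no support for them.

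Trbv12-2 was also lower in every myeloma library. It had 7.70, 8.63 and 6.16 CPM in myeloma libraries, against 14.0, 13.1 and 11.5 CPM in control libraries, without overlap. The log2 fold change was -0.78 (SE 0.22, adjusted p = 0.0507). It passed under 8 of 10 other settings (0.0213 to 0.171) and in 0 of 6 fits that left out a library (0.0742 to 0.164). The settings without a call were the replicate block (0.171) and summed Trbv counts as library size (log2 fold change -0.52, adjusted p = 0.169). Its share was 2.97%, 3.52% and 3.17% in myeloma libraries, against 5.04%, 4.59% and 4.19% in control libraries, a difference of -1.39 points. Its near relative Trbv12-1 had 5.93, 6.25 and 2.86 CPM in myeloma, against 7.80, 7.99 and 6.75 CPM in control libraries, and did not pass (log2 fold change -0.58, SE 0.34, adjusted p = 0.301). Together these 2 segments made up 5.32 ± 0.718% of V counts in myeloma and 7.30 ± 0.608% in control libraries (SD, n = 3 each).

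Trbv13-1 took a higher share in every myeloma library. Its share was 8.54%, 6.59% and 4.41% in myeloma replicates 3, 4 and 5, against 3.78%, 3.72% and 4.19% in control replicates 1, 3 and 5. The groups did not overlap, but myeloma replicate 5 was close to the controls, and its 95% Wilson interval of 3.62% to 5.35% (counting error only) holds all 3 control shares. The interval in myeloma replicate 3 was 7.60% to 9.58%. The difference was 2.62 percentage points, and 1.60 without myeloma replicate 3. As a level it did not pass, with 22.2, 16.2 and 8.57 CPM in myeloma, against 10.5, 10.7 and 11.5 CPM in control libraries (log2 fold change 0.53, SE 0.30, adjusted p = 0.299). The level rested on single libraries, with a log2 fold change of 0.82 without myeloma replicate 5 (adjusted p = 0.0306) and of 0.17 without myeloma replicate 3 (adjusted p = 0.758).

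The sum of the 3 Trbv13 segments, which includes Trbv13-1, was a larger share of V counts in every myeloma library. Trbv13-2 had shares of 8.18%, 7.48% and 6.88% in myeloma, against 6.76%, 8.05% and 6.52% in control libraries, which overlap. Trbv13-3 had 4.46%, 6.47% and 6.84% in myeloma, against 3.89%, 4.23% and 5.36% in control libraries, which also overlap. Summed, the 3 segments held 21.2%, 20.5% and 18.1% in myeloma and 14.4%, 16.0% and 16.1% in control libraries. The means differed by 4.45 points for the sum, and by 2.62 for Trbv13-1, 0.40 for Trbv13-2 and 1.43 for Trbv13-3. The myeloma library with the highest share differed between members, replicate 3 for Trbv13-1 and replicate 5 for Trbv13-3.

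**Figure D3:**
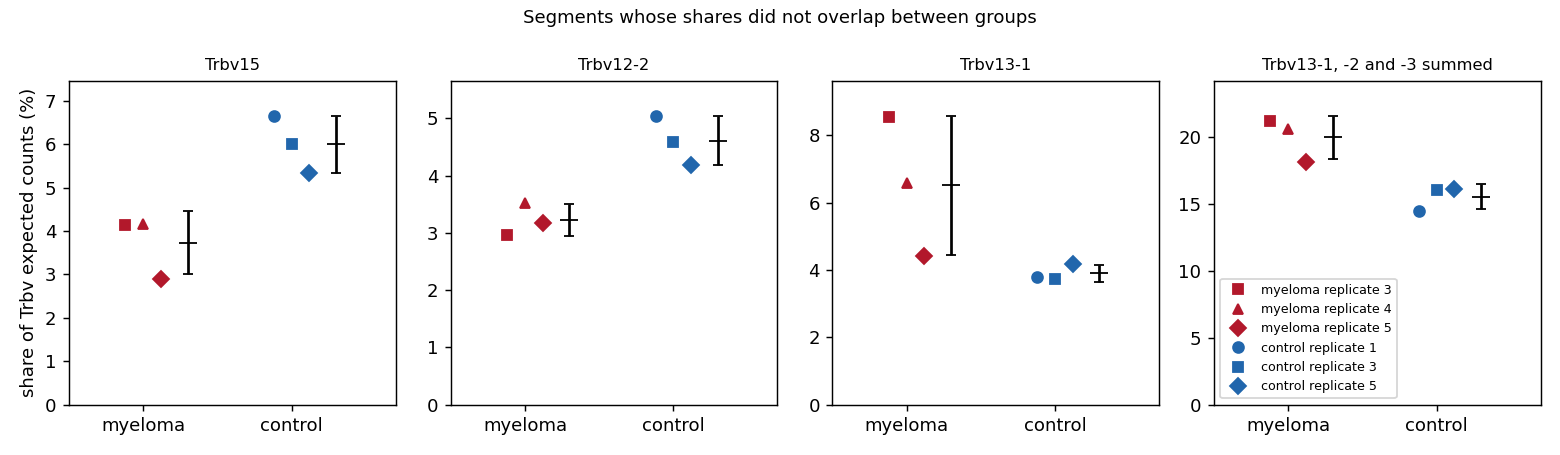
Share of all Trbv counts (percent) held by Trbv15, Trbv12-2, Trbv13-1 and the sum of the Trbv13 genes, for each library (points; marker shape gives the replicate number), with the mean and SD of each group (bars, n = 3). The 3 single segments are those, of 22 tested, chosen because their shares did not overlap between groups. The lack of overlap in their panels was therefore set by that choice, and the sum includes Trbv13-1. Myeloma replicate 5 lies nearest to the control range for Trbv13-1, at 4.41% against at most 4.19%.

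Shares of the other segments overlapped between the groups. In all, 3 of 22 tested V genes had shares that did not overlap, 2 lower and 1 higher in myeloma. Among 66 alpha chain segments with at least 10 counts in 3 libraries, 6.06% had shares of Trav counts that did not overlap, and over all genes tested 33.3% had CPM that did not. The mean share was higher in myeloma for 11 of the 22 and lower for 11.

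By mean share of counts, the leading segments were Trbv3 and then Trbv1 in both groups. Single libraries differed, with Trbv1 first in myeloma replicate 3 and control replicate 1, and Trbv3 first in the others. Trbv3 averaged 10.7 ± 0.212% of V counts in myeloma and 11.5 ± 1.71% in control libraries (SD, n = 3 each). Its level of 27.4, 26.2 and 21.3 CPM in myeloma, against 29.6, 38.6 and 28.4 CPM in control libraries, did not overlap but missed the threshold (log2 fold change -0.36, SE 0.16, adjusted p = 0.167). Trbv1 averaged 9.17 ± 2.28% in myeloma and 8.97 ± 1.94% in control libraries and varied by several points within each group. Trbv16 averaged 7.42 ± 0.150% in myeloma and 7.78 ± 2.30% in control libraries, with the spread among controls from 5.40% to 10.01%.

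Further segments with a mean share of at least 5% in either group were Trbv19, Trbv5, Trbv2 and Trbv26. Trbv19 averaged 7.33 ± 1.01% in myeloma and 7.14 ± 0.794% in control libraries. Trbv5 averaged 6.84 ± 0.684% and 7.04 ± 0.893%, and Trbv2 averaged 5.48 ± 0.778% and 4.84 ± 0.348%, again in myeloma and control libraries. Trbv26 was the most variable of these, with 3.03%, 6.67% and 4.77% in myeloma against 4.06%, 6.57% and 7.48% in control libraries. Its level missed the threshold (log2 fold change -0.60, SE 0.31, adjusted p = 0.257).

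**Figure D4:**
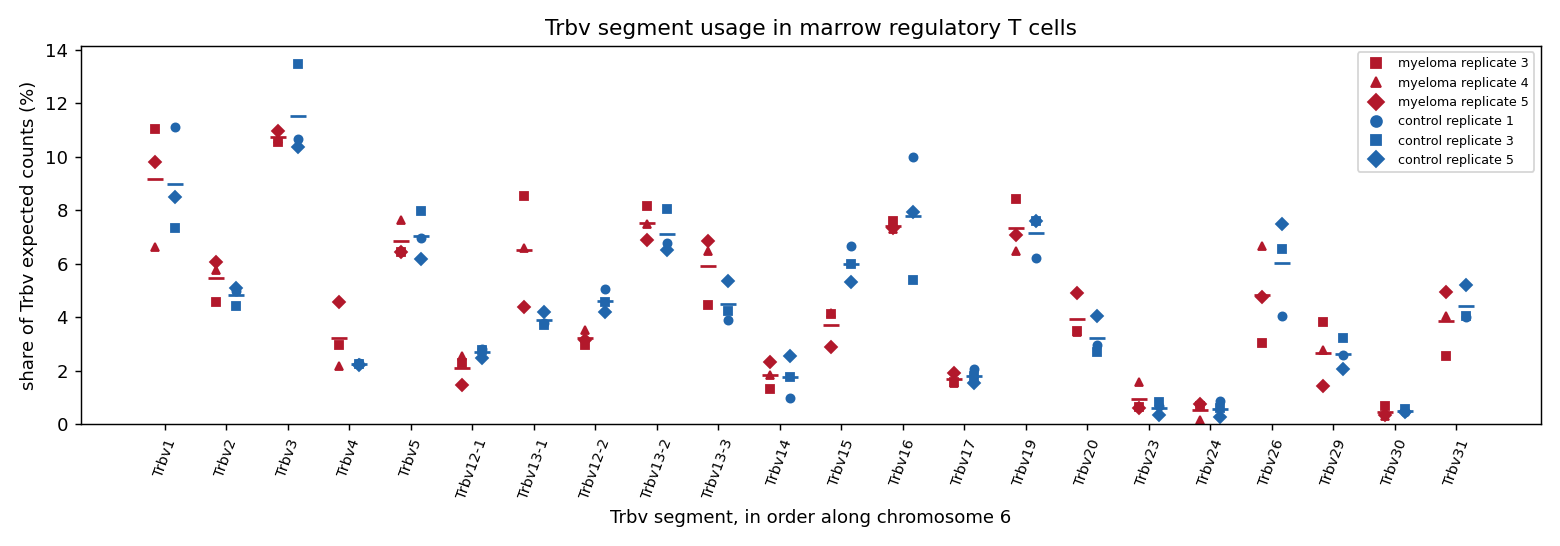
Share of all Trbv counts (percent) held by each of the 22 tested V genes in each library (points; marker shape gives the replicate number), with group means as short lines, myeloma left and control right. Most segments overlap, and Trbv15 and Trbv12-2 lie lower and Trbv13-1 higher in all 3 myeloma libraries.

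Counts favour longer genes, so segments are ranked against each other per length, by share of summed Trbv TPM. On that scale Trbv13-2 led in both groups, at 10.1 ± 0.768% in myeloma and 9.60 ± 1.16% in control libraries (SD, n = 3 each). In control libraries it was followed by Trbv3 (8.65 ± 1.17%), Trbv5 (7.98 ± 1.005%), Trbv1 (7.93 ± 1.78%) and Trbv16 (7.53 ± 2.27%), neighbours that lie within each other's spread. Trbv15 ranked 10 in myeloma (4.15 ± 0.784%) and 7 in control libraries (6.72 ± 0.748%), and Trbv13-1 ranked 6 in myeloma (7.42 ± 2.34%) and 11 in control libraries (4.47 ± 0.293%). At the lower end, the mean shares of Trbv23, Trbv24 and Trbv30 were the lowest among tested segments, between 0.638% and 1.20% over both groups. Across the 22 segments, the group means of this share had a Spearman rho of 0.93, a description only, since all segments share the same libraries and lengths.

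The evenness of V use overlapped between the groups. The effective number of segments, the exponential of the Shannon entropy of the count shares, was 17.3, 18.0 and 17.7 in myeloma libraries, against 17.4, 17.7 and 17.8 in control libraries. The difference was 0.027 (SE 0.249). The largest share held by any segment was 11.0%, 10.7% and 11.0% in myeloma libraries, against 11.1%, 13.5% and 10.4% in control libraries, and belonged to Trbv1 or Trbv3 in each. V segments do not resolve clones, so expansion of single clones is not measured by these values.

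V use also varied between libraries of the same group. For each pair of libraries, a chi-square over 22 segments with at least 10 counts in 3 libraries was divided by its 21 degrees of freedom, where counting error alone gives about 1. The ratio was between 5.16 and 7.21 for pairs of myeloma libraries, between 4.84 and 6.73 for pairs of control libraries, and between 4.11 and 10.7 for pairs across groups. The Bray-Curtis distance, the share of V counts that would have to change segment, was between 0.110 and 0.131 within myeloma, between 0.102 and 0.110 within control and between 0.0909 and 0.156 across groups. The smallest distance was between myeloma replicate 4 and control replicate 5, so the distances within and across groups overlapped.

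Partner genes of the beta chain were counted in the same test, which called 6.33% of all genes tested as higher and 4.69% as lower. Of 13 genes for the alpha chain, the CD3 subunits, the CD4 coreceptor and the first signalling steps, 1 rose and 0 fell, with a median log2 fold change of 0.03. The member that rose was Cd3g, the gamma subunit of CD3, at 475 ± 32.1 CPM in myeloma and 368 ± 31.1 CPM in control libraries (SD, n = 3 each; log2 fold change 0.37, SE 0.10, adjusted p = 0.0416). Cd3d, at 335 ± 34.5 against 264 ± 11.3 CPM, lay just outside the threshold (log2 fold change 0.34, SE 0.095, adjusted p = 0.0520). Cd3e, at 562 ± 5.31 against 546 ± 49.5 CPM, and Cd247, the zeta chain, at 248 ± 25.1 against 245 ± 18.5 CPM, did not pass. Of 12 tested genes of receptor gene assembly, from the recombinase to DNA end joining, 0 passed in either direction, with a median of -0.17. Rag1, a subunit of the recombinase, had 0.169, 2.58 and 4.64 CPM in myeloma against 2.97, 20.9 and 19.7 CPM in control libraries (log2 fold change -2.56, SE 0.89, adjusted p = 0.0974). The sum of 4 B cell markers was also highest in control replicates 3 and 5, at 153 and 190 CPM. Which cells the Rag1 RNA came from was not tested. Ptcra, the partner of the beta chain in developing thymocytes, was below 0.1 CPM in every library. The list of 4 developing T cell markers holds Rag1, which made up most of its sum in control replicates 3 and 5, so that sum is not a separate measure. Dntt, another of its genes, had 0.508, 0.397 and 2.50 CPM in myeloma, against 1.40, 0.601 and 2.11 CPM in control libraries, which overlap.

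Defining genes of the sorted population were present in all libraries, with Foxp3 between 991 and 1247 CPM and Cd4 between 476 and 552 CPM. The 5 regulatory T cell markers summed to 3825, 3579 and 3830 CPM in myeloma, against 4642, 4080 and 3389 CPM in control libraries, and 0 of 5 were called. RNA of other cell types was also present, and the counts of markers called stand against 6.33% of all genes tested called higher and 4.69% called lower. The sum of 5 plasma cell markers was 40.5, 149 and 261 CPM in myeloma replicates 3, 4 and 5, against 4.47 to 8.93 CPM in controls, and 2 of 4 tested were higher. The sum of 4 B cell markers was 10.1 to 36.3 CPM in myeloma, against 23.6, 153 and 190 CPM in control replicates 1, 3 and 5, and 2 of 4 were lower. The 3 erythroid markers, all lower, summed to 2026 to 2510 CPM in myeloma, against 3618 to 7997 CPM in controls. The sum of 4 myeloid markers was 37.4, 92.4 and 261 CPM in the myeloma libraries, against 30.6 to 82.6 CPM in controls. That of 4 neutrophil markers was 99.6, 356 and 309 CPM in myeloma, against 50.5 to 134 CPM in controls. None of the myeloid or neutrophil genes was called. RNA of CD8, gamma delta and NK cell markers was also read, and 0 of those tested were called. CD8 markers summed to 13.5 to 22.4 CPM in myeloma, against 11.0 to 13.8 CPM in controls. Of these, Cd8b1 was higher in every myeloma library, at 11.9, 14.5 and 15.4 against 9.83, 10.6 and 10.1 CPM, while Cd8a overlapped. Gamma delta markers (4 of 7 found) summed to 12.5 to 14.0 against 7.84 to 12.3 CPM, without overlap. NK and NKT markers summed to 2.37 to 5.09 against 2.75 to 3.99 CPM. The part of these cells in the V shares was not tested.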

How the data were processed

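Per the labels' protocols, total RNA from sorted cells went into NEBNext Ultra libraries. Tools listed in the submitters' processing notes are STAR, RSEM, Picard and DESeq2, with the build mm10 and without versions or settings. The deposited tables hold RSEM expected counts, estimated by the authors and not normalized, TPM, scaled by the authors for length and library, and the authors' other columns of length and effective length, per the file headers. Symbols were matched by Ensembl ID (47224 of 47643).

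Expected counts were rounded, filtered by filterByExpr (minimum count 10, total 15), scaled by TMM and tested with edgeR 4.0.16 (R 4.3.3; glmQLFit, glmQLFTest), with Benjamini-Hochberg adjustment over 13235 genes. DESeq2 1.42.0 and limma 3.58.1 were alternatives. Shares used unrounded counts, and means are given ± SD. The series text gives 3 mice for each group, but no label ties a library to its own mouse. A p-value here sets the group difference against variation among libraries. It treats the libraries as independent, which the labels do not establish. No 2 libraries held identical counts. The members and gene lists were chosen with earlier results of these data known. The share of the Trbj1 cluster is not given, since all J genes had an effective length of 0. Genes named are those with a mean share of at least 5%, a share without overlap or a call, both C genes and members of the lists. Others, such as Trbv12-1 and Trbv31, were named after their values were seen. Sequences and positions are from GENCODE M21 (GRCm38).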

Additional observations from a re-analysis of the deposited data

How the results depend on the processing

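The number of beta locus genes called lower, 0 by edgeR with TMM, was 2 with upper-quartile or RLE factors, plain library sizes, no filter on low counts, a filter of 1 CPM in 3 libraries, DESeq2, limma-voom, and without immunoglobulin, haemoglobin and mitochondrial genes. It was 0 with summed Trbv counts as library size and with the replicate number as a block, and 0 to 1 in either direction when a library was left out. The cause was not tested. Replicate numbers 1 and 4 each occur in 1 group only, so estimates with the block rest on the libraries numbered 3 and 5. Numbers 3 and 5, shared by the groups, were not taken as pairs. Deviations from group means correlated at 0.030 for the libraries numbered 3 and at 0.097 for those numbered 5. Over all pairs across groups the correlations ran from -0.081 to 0.097. With 3 libraries a group, such deviations cannot decide whether the libraries were paired. With the replicate block the log2 fold change was 0.088 for Trbv1, 0.0026 for Trbv20, -0.13 for Trbv23 and 0.53 for Trbv24. It was -0.10 for Trbv13-3 and -0.0099 for Trbc1. The difference in effective number was -0.265 and that in the Trbv16 share was 0.801. All of these had the opposite sign to the main setting. Trbv20 was also positive with limma-voom (0.0029). With summed Trbv counts as library size, which shifts the median of all genes to 0.30, values shift alike and the sign turned for Trbv1 (0.032), Trbv2 (0.18), Trbv13-2 (0.081), Trbv14 (0.056), Trbv19 (0.037), Trbv20 (0.28), Trbv29 (0.030) and Trbc2 (0.26). Trbc1 turned negative with RLE (-0.0031), upper-quartile factors (-0.015), plain library sizes (-0.065), no filter (-0.012), the 1 CPM filter (-0.0017), DESeq2 (-0.0031), limma-voom (-0.0037) and without immunoglobulin, haemoglobin and mitochondrial genes (-0.0035). The difference in effective number was -0.127 in TPM and -0.513 with the Trbv12 and Trbv13 subfamilies summed, and that in the largest share was 0.246 and 4.45 points. When a library was left out, log2 fold changes spanned -0.0092 to 0.24 for Trbv13-3 and -0.10 to 0.10 for Trbc1. They spanned -0.071 to 0.053 for Trbc2 and -0.071 to 0.077 for summed Trbc. Other segments also turned, such as Trbv23 (-0.30) and Trbv20 (0.040) without myeloma replicate 4. Differences spanned -0.167 to 0.224 in effective number, and in percentage points -1.40 to 0.161 in the largest share, -0.541 to 0.769 in the Trbc1 share, -0.745 to 1.46 for Trbv1, -1.35 to 0.209 for Trbv3, -0.630 to 0.261 for Trbv5, -1.55 to 0.752 for Trbv16 and -0.375 to 0.608 for Trbv19. The Trbj1 cluster share was not run, as J genes had an effective length of 0. Precision is limited by 3 libraries a group and by 2178.94 to 3771.06 V counts in each.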
